A study of Sus scrofa with 8 samples.

Results

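The genes described here mark cellular senescence or respond to the tumour suppressor p53. They were chosen by name, with earlier results of these data known. The 9 listed were CDKN1A, CDKN2A, CDKN2B, MDM2, GADD45A, GADD45B, GDF15, LMNB1 and IL6. Of these, 6 matched 1 row each of the 21607 mRNAs in the table by Ensembl gene symbol. CDKN2B, GADD45A and GDF15 matched no row through their Ensembl identifiers and were not analysed here. The livers came from sows of the Yanan pig, a local breed of China. All were healthy, with no close kinship among them. The young group was 2 sows of 180 days and the old group 2 sows of 8 years, so each age rests on 2 animals. All were unmodified animals, fasted overnight before slaughter, and none was given a treatment. The young sows had never farrowed and the old sows had borne litters over many years, so age and parity cannot be told apart. Liver tissue was taken from each sow, and each liver gave 1 rRNA-depleted RNA-seq library and 1 small RNA library. The question was how expression of these genes differs between young and old livers.

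Senescence is a lasting arrest of the cell cycle in cells that stay metabolically active. It is held by inhibitors of cyclin-dependent kinases, which keep the retinoblastoma protein in its growth-suppressing form. DNA damage stabilises p53, which induces the kinase inhibitor CDKN1A and its own ubiquitin ligase MDM2. Senescent cells also lose lamin B1 from the nuclear envelope and secrete cytokines such as interleukin-6. In liver, senescence is known from hepatocytes and stellate cells in chronic injury and ageing.

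Values are reads scaled to a common library total (CPM), where the real totals lay between 61.5 and 91.8 M reads, and no gene length enters them, so levels are compared only within a gene. The listed mRNAs held 37.6 and 37.1 M reads in the young libraries and 22.5 and 24.9 M in the old ones. A library in which 3 reads or fewer were counted is taken as at its limit of detection, which was between 0.0327 and 0.0487 CPM. The summed level of 14 hepatocyte markers was high in every library but lower in the old ones. It was 90938 and 101818 CPM in young livers and 64254 and 70008 CPM in old livers. Most of that sum was ALB and APOC3. Of the 14 markers, 5 (35.7%) were below both young livers in both old ones and 0 above, beside 25% and 24.4% of all mRNAs tested. Old replicate 1 stood apart: the summed level of 21 interferon-stimulated genes was 2217 CPM there and between 83.7 and 127 CPM in the other livers. The libraries are of bulk tissue, so fewer cells of a type and less RNA per cell cannot be told apart. With 2 libraries against 2, an exact two-sided permutation test of a single gene cannot go below p = 0.333. Differences were therefore tested with limma across all 16898 mRNAs above 0 in at least 2 libraries, and a call needed an adjusted p under 0.05 and an absolute log2 fold change above 1.

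None of the 4 senescence genes that could be tested was called by limma, where 0% of the 16898 mRNAs were called. The exact test of edgeR on whole reads called none of the 4 either, against 2.36% of all mRNAs (2.04% higher and 0.32% lower in old livers). At an unadjusted p under 0.05, limma had none of the 4, beside 6.78% of all mRNAs higher and 8.93% lower. The exact test had CDKN2A and GADD45B higher at that level, beside 9.18% of all mRNAs higher and 2.12% lower, and so did the quasi-likelihood test of edgeR, beside 11.6% higher and 3.08% lower. CDKN2A and GADD45B were higher in both old livers than in either young liver, a separation that 24.4% of all mRNAs tested also had. With 0 in both young livers, CDKN2A could enter the fits only through the old ones, so its direction was fixed by the filter. MDM2 and LMNB1 overlapped between the ages. CDKN1A and IL6 were listed at 0 in all 4 livers and could not be tested.

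**Figure D1:**
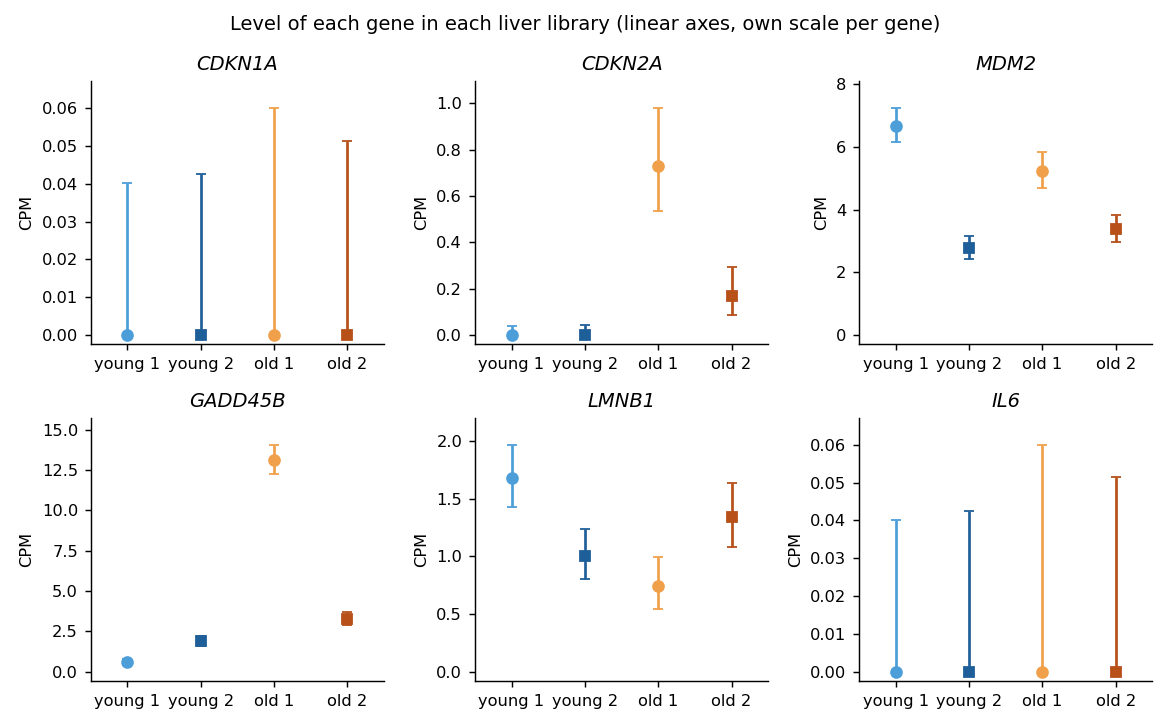
Level in CPM of the 6 senescence and p53 response genes in each of the 4 liver libraries, on a linear axis with its own scale per gene. Points are the deposited values and bars exact 95% binomial intervals, which cover counting error only; CDKN2A and GADD45B are higher in both old livers, MDM2 and LMNB1 overlap, and CDKN1A and IL6 are at 0 throughout.

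CDKN2A (ENSSSCG00000005134) encodes the kinase inhibitor p16 and, from another reading frame, ARF, which restrains MDM2. The table gives 1 value for the gene, so the products cannot be told apart. CDKN2A was at 0 in both young livers, at 0.731 CPM in old replicate 1 and at 0.167 CPM in old replicate 2. These values rest on 45 reads in old replicate 1 (exact 95% binomial interval 0.533 to 0.978 CPM) and 12 reads in old replicate 2 (0.0863 to 0.292 CPM). In the deeper young libraries the upper limits of that interval were 0.0402 and 0.0426 CPM, below the lower limits in both old livers. CDKN2A reads were thus counted in the shallower old libraries and in neither of the deeper young ones, and the old livers differed 4.38-fold between themselves. Against a level of 3 reads in the young libraries, the mean of the old livers was 13.3-fold higher, with 21.7-fold in old replicate 1 and 4.96-fold in old replicate 2. The upper limits of the young intervals lie above that level, so these folds are not lower bounds.

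On log2(CPM + 1), where a difference at such low values is understated, limma put CDKN2A at a log2 fold change of 0.51 with a standard error of 0.25 (adjusted p = 0.444). With a pseudocount of 0.1 it was 2.24 (adjusted p = 0.306, limma). The exact test of edgeR gave an adjusted p of 0.0835, and its quasi-likelihood test 0.276. CDKN2A entered the fit only through the old livers, since a gene had to be above 0 in 2 libraries. Its pattern of 0 in both young and above 0 in both old livers was shared by 1135 mRNAs, 6.72% of those tested, whereas the opposite pattern was found for 74 (0.438%). More mRNAs were above 0 in the old libraries (17262 and 16978) than in the young ones (15230 and 14291), although the old libraries held fewer reads. Markers of other cells are given beside these values. All 3 neutrophil and monocyte markers with an identifier, of 8 named, were higher in both old livers, as were 24.4% of all mRNAs tested. Their summed level was 27.9 to 28.2 CPM in young livers, 55.6 CPM in old replicate 1 and 92.9 CPM in old replicate 2. Most of that sum was CD14, at 49.7 and 91.1 CPM in the old livers. CDKN2A was higher in old replicate 1, while CD14 and with it this sum were higher in old replicate 2. S100A8 (3.54 and 0.919 CPM in old replicates 1 and 2) and CSF3R (2.36 and 0.849 CPM) were higher in old replicate 1, as CDKN2A was. S100A8 among these markers, which the exact test of edgeR called, was at 0 in both young livers and entered the fit only through the old ones. Of the T and NK cell markers 7 of 10 were higher and 1 lower in both old livers, beside 24.4% and 25% of all mRNAs. Their sums overlapped, at 17.0 to 31.1 CPM in young and 29.4 to 30.3 CPM in old livers. The part of the number of mRNAs above 0 and of these markers in the CDKN2A values was not tested.

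CDKN1A (ENSSSCG00000001565) encodes p21, the kinase inhibitor that p53 induces. CDKN1A was listed at 0 in young replicates 1 and 2 and in old replicates 1 and 2. The upper limits of the exact 95% binomial intervals for 0 reads were 0.0402 and 0.0426 CPM in the young livers and 0.0599 and 0.0514 CPM in the old livers. An age difference below those levels was not detectable at this depth. Of all mRNAs, 3032 (14.03%) were at 0 in all 4 libraries, and among those with a symbol the share was 7.04% (820 of 11654). Of 243 genes of the basic cell machinery, picked by symbol after values had been seen, 3 were at 0 throughout: EIF4E1B, PSMA8 and PSMB11. That set holds other genes, so it cannot show whether the CDKN1A estimate failed. A failed estimate for the CDKN1A identifier was not tested.

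MDM2 (ENSSSCG00000000488), the ubiquitin ligase that p53 induces and that degrades p53, was at 6.69 and 2.78 CPM in young livers against 5.23 and 3.38 CPM in old ones. These values stand on 614, 241, 322 and 243 reads. The highest and the lowest value of MDM2 both came from young livers, with both old livers between them. The means were 4.73 ± 2.76 CPM in young and 4.31 ± 1.31 CPM in old livers (SD, n = 2 each). The limma log2 fold change of MDM2 was -0.05 with a standard error of 0.46 (adjusted p = 0.975), and its sign turned with TMM scaling (0.12), with rescaling to a common sum over the listed mRNAs (0.17) and in edgeR (0.077). It was also positive without young replicate 1 (0.47) and without old replicate 2 (0.21). Within each age, replicates differed by 2.40-fold in young and 1.55-fold in old livers, more than the group means differed from each other.

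GADD45B (ENSSSCG00000022689) encodes a stress sensor that activates the p38 and JNK kinases and is induced by NF-kappaB and TGF-beta as well as by damage. GADD45B was at 0.588 and 1.88 CPM in young livers against 13.1 and 3.29 CPM in old ones, from 54, 163, 807 and 236 reads. Both old livers were above both young livers, and old replicate 1 was 3.99-fold above old replicate 2. Old replicate 2 exceeded young replicate 2 by a smaller ratio than the 3.20-fold within the young or the 3.99-fold within the old livers. The means were 1.24 ± 0.916 CPM in young and 8.20 ± 6.95 CPM in old livers (SD, n = 2 each), a ratio of 6.64.

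The limma log2 fold change of GADD45B on log2(CPM + 1) was 1.86 with a standard error of 0.76 (adjusted p = 0.383). In limma, 4.21% of the mRNAs tested had a log2 fold change above 1 together with both old livers above both young ones. Without old replicate 1 the fold change was 1.0 (adjusted p = 0.599, limma), and without old replicate 2 it was 2.72 (adjusted p = 0.294, limma). The exact test of edgeR put GADD45B at 2.91, outside the threshold (adjusted p = 0.0524), and the quasi-likelihood test gave an adjusted p of 0.301. Old replicate 1, the liver with the highest GADD45B, is also the one where each of the 21 interferon-stimulated genes exceeded its level in young livers. In old replicate 2, 5 of the 21 were above and 10 below both young livers, and GADD45B was still above both young livers there. In limma none of the 21 was called. The exact test of edgeR called 10 of them higher in old livers, where it called 2.04% of all mRNAs higher. The part of the interferon-stimulated genes in the GADD45B values was not tested.

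LMNB1 (ENSSSCG00000014248) encodes lamin B1, a filament protein of the inner nuclear membrane whose loss marks senescent cells. LMNB1 was at 1.68 and 1.01 CPM in young livers against 0.747 and 1.34 CPM in old ones, from 154, 87, 46 and 96 reads. The highest value was in a young liver and the lowest in an old liver, but old replicate 2 was above young replicate 2, so the ages overlapped. The means were 1.34 ± 0.475 CPM in young and 1.04 ± 0.416 CPM in old livers (SD, n = 2 each). The limma log2 fold change of LMNB1 was -0.20 with a standard error of 0.25 (adjusted p = 0.766), and it was 0.01 without young replicate 1 or without old replicate 1.

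IL6 (ENSSSCG00000020970) encodes interleukin-6, a cytokine of the senescence-associated secretome that drives the hepatic acute phase response. IL6 was listed at 0 in every library, with the same upper limits as CDKN1A, the highest being 0.0599 CPM in old replicate 1. No age comparison of IL6 was possible. A failed estimate for the IL6 identifier was not tested. Its receptor IL6R, named after its values were seen, was at 7.59 and 9.47 CPM in young livers against 9.41 and 12.4 CPM in old ones, with overlap between the ages.

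**Figure D2:**
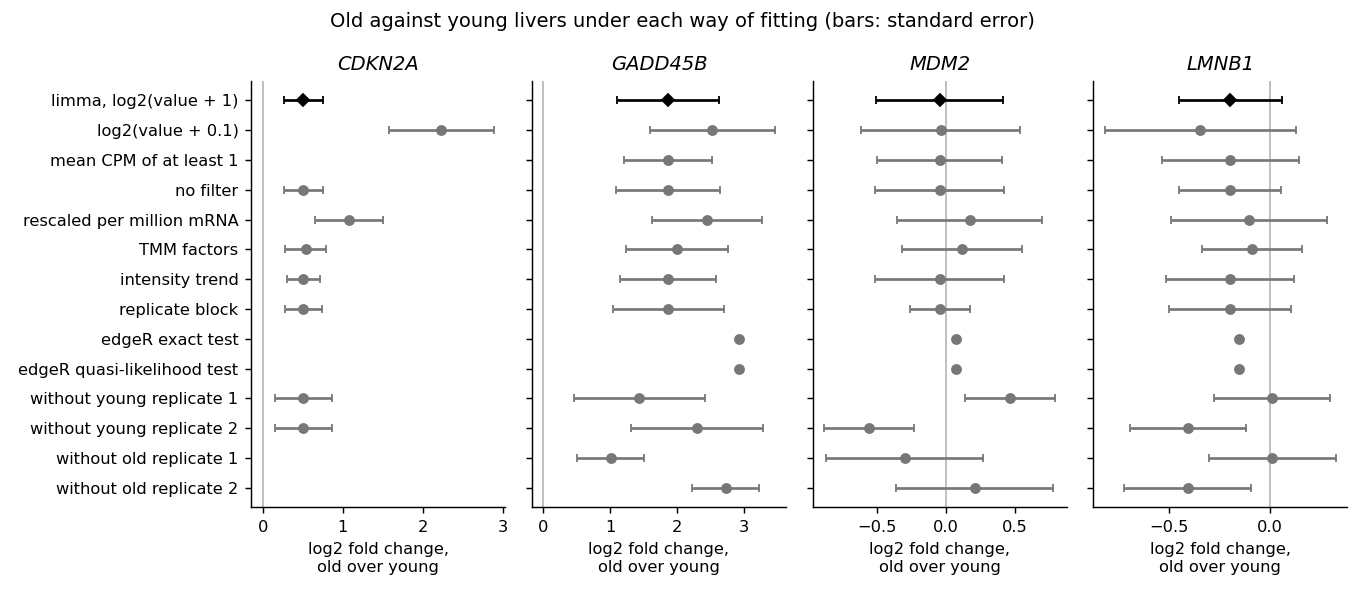
Log2 fold change of old over young livers for the 4 genes tested, under the limma fit on log2(CPM + 1) (black diamond) and each alternative (grey), with standard errors as bars where the method gives one. CDKN2A has no value with a mean CPM of at least 1 or without an old replicate, and its edgeR values are left out because a fold against 0 reads depends on the prior count; GADD45B is above 0 in every fit, from 1.0 to 2.91, while MDM2 and LMNB1 lie on both sides of 0.

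Genes around these members were taken from 7 lists of related pathways, which held 105 genes that could be tested. The lists were chosen with earlier results of these data known, so their shares beside all mRNAs are descriptions only. None of the 105 was called by limma. Both old livers were above both young livers for 28.6% of them, and below for 24.8%, against 24.4% and 25% of all mRNAs. Genes at 0 in both young livers count here as higher, though the filter fixed their direction, as for 6.72% of all mRNAs tested. The exact test of edgeR called 6 of the 105, namely CRP, ATF3, FOS, JUNB, IER2 and DUSP1, where it called 2.36% of all mRNAs.

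Of 32 targets of p53, 20 could be tested. Their median log2 fold change was -0.08, beside -0.02 over all mRNAs, and none was called by either test. In the old livers 2 of the 20 (10%) lay above both young livers and 5 (25%) below, beside 24.4% and 25% of all mRNAs. CCNG1, a cyclin that recruits a phosphatase to MDM2, was at 21.2 and 22.5 CPM in young livers against 7.15 and 10.8 CPM in old ones, a log2 fold change in limma of -1.22 with a standard error of 0.24 (adjusted p = 0.230). RPS27L, a ribosomal protein paralog that p53 induces, was at 5.51 and 7.30 CPM in young livers against 3.19 and 3.43 CPM in old ones (adjusted p = 0.250, limma). Both genes were thus lower in each old liver, by more than the spread within an age, without passing the threshold. The pro-apoptotic gene BBC3, which encodes PUMA, had the pattern of CDKN2A, with 0 in both young livers and 0.211 and 0.181 CPM in the old livers. BBC3 is named here after its values were seen, and like CDKN2A it entered the fit only through the old livers. Without old replicate 1 the median over the targets was -0.35, without old replicate 2 it was 0.05, and it also turned positive with TMM factors (0.02), rescaling (0.03) and edgeR (0.09).

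**Figure D3:**
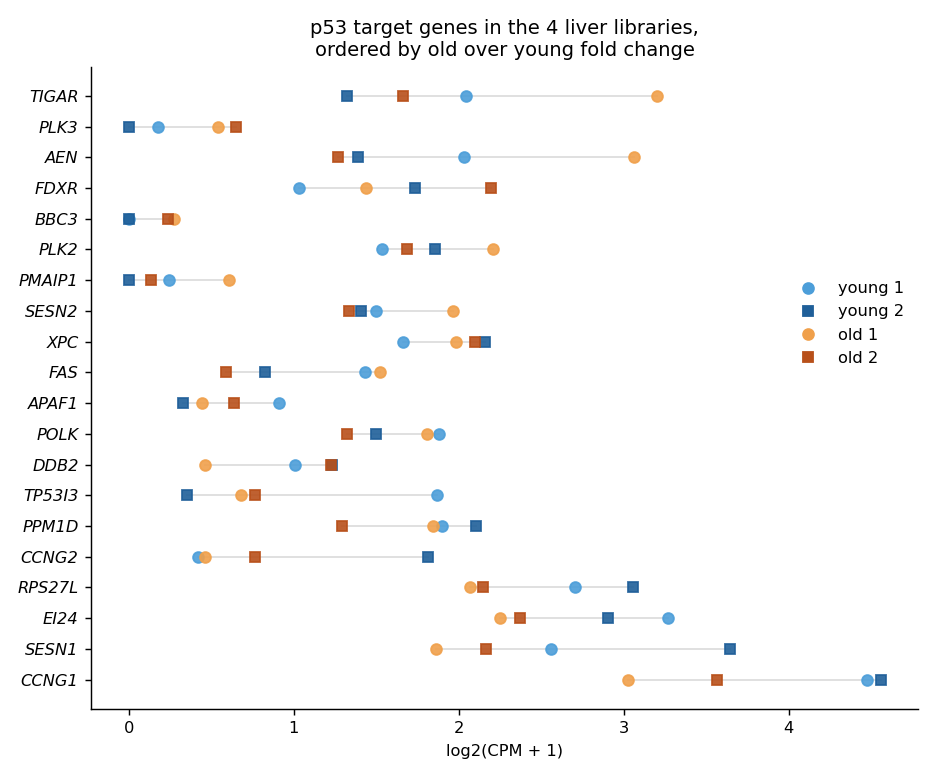
Level of the 20 tested p53 target genes in the 4 liver libraries as log2(CPM + 1), 1 symbol per library and 1 row per gene, ordered by fold change. The ages overlap for 13 genes, both old livers are above both young livers for PLK3 and BBC3, and both are below for CCNG1, SESN1, EI24, RPS27L and PPM1D.

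Of 27 regulators of the p53 and retinoblastoma pathways, 16 could be tested, with a median log2 fold change of -0.25 (-0.50 with a pseudocount of 0.1, -0.14 with TMM factors and -0.16 without old replicate 1). Both old livers were above both young ones for 4 (25%) and below for 8 (50%), beside 24.4% and 25% of all mRNAs. CDKN2C, an inhibitor of the cyclin D kinases related to the product of CDKN2A, was at 2.35 and 2.24 CPM in young livers against 0.585 and 0.974 CPM in old ones. CDKN2C was lower in both old livers, with a log2 fold change of -0.90 and a standard error of 0.16 in limma (adjusted p = 0.228). CDKN2D, of the same inhibitor family and named after its values were seen, was higher in both old livers, as CDKN2A was, at 0.523 and 0.231 CPM in young livers against 0.991 and 0.696 CPM in old ones (adjusted p = 0.404, limma). ATM, the kinase that signals DNA breaks to p53, was at 1.37 and 1.57 CPM in young livers against 0.650 and 0.640 CPM in old ones (adjusted p = 0.230, limma).

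Of 40 genes of the senescence-associated secretome, 26 could be tested, and their median log2 fold change was 0.07, or 0.33 with a pseudocount of 0.1 and 0.70 in edgeR. Both old livers were above both young ones for 10 of them (38.5%) and below for 4 (15.4%), beside 24.4% and 25% of all mRNAs. Among the 10, CXCL8, CXCL2 and AREG were at 0 in both young livers, so the filter fixed their direction. CXCL8 and AREG had at most 2 reads in any library, within the limit of detection. Among the 4, CSF2 was at 0 in both old livers and entered only through the young ones. None was called by either test. TNFRSF1B, a receptor of tumour necrosis factor, was at 2.54 and 1.76 CPM in young livers against 6.35 and 4.68 CPM in old ones (log2 fold change 1.05, adjusted p = 0.246, limma). The opposite order was found for IGFBP7, a binding protein of insulin-like growth factors, at 12.1 and 17.7 CPM in young livers against 6.05 and 9.83 CPM in old ones. The matrix protease MMP14 was also lower in both old livers, at 3.28 and 2.84 CPM against 4.97 and 3.72 CPM. The neutrophil attractant CXCL8 reached at most 0.032 CPM, and MMP12 was at 0 in all 4 libraries. CXCL8, CXCL2, AREG, CSF2 and MMP12 were not named by the rule and were picked after their values were seen.

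Of 17 genes of interleukin-6 signalling and the acute phase, 10 could be tested, with a median of -0.22, which was 0.02 in edgeR and 0.15 without old replicate 2. None had both old livers above both young ones, and 3 (30%) had them below, beside 24.4% and 25% of all mRNAs. CRP, an acute phase protein that interleukin-6 induces in hepatocytes, was at 360 and 217 CPM in young livers against 36.7 and 11.9 CPM in old ones. Its log2 fold change in limma was -3.67 with a standard error of 0.68 (adjusted p = 0.228), and the exact test of edgeR called it (adjusted p = 0.00191). The kinase JAK1 was at 22.5 and 14.1 CPM in young livers against 12.8 and 13.6 CPM in old ones, a smaller step with no call.

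The integrated stress response and the immediate early genes answer acute stress within minutes to hours, as GADD45B does, and 12 of 20 could be tested. Their median log2 fold change was 1.72. In both old livers 8 of the 12 (66.7%, beside 24.4% of all mRNAs) were above both young livers. The exact test of edgeR called 5 higher, where it called 2.04% of all mRNAs higher. As the list was chosen with earlier results of these data known, these shares describe it and do not test it. DUSP1, a phosphatase that turns off p38 and JNK, was at 10.245 and 6.37 CPM in young livers against 65.2 and 56.6 CPM in old ones (limma log2 fold change 2.76 with standard error 0.27 and adjusted p = 0.213). JUNB, a transcription factor subunit, was at 0.131 and 0.994 CPM in young livers against 11.4 and 14.4 CPM in old ones (log2 fold change 3.20, adjusted p = 0.213, limma). FOS, its partner and a gene named after its values were seen, was at 1.17 and 1.49 CPM in young livers against 9.95 and 206 CPM in old ones. The summed level of the list was 27.8 to 30.0 CPM in young livers, 131 CPM in old replicate 1 and 371 CPM in old replicate 2. GADD45B was highest in old replicate 1 and this list in old replicate 2. The median of the list was 2.60 without old replicate 1 and 0.80 without old replicate 2.

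Of 17 genes of the nuclear lamina and of chromatin in senescence, 7 could be tested, with a median of -0.17 that lay between -0.33 and 0.08 when 1 library was left out. LMNA, which encodes lamins A and C, was at 3.06 and 2.54 CPM in young livers against 9.38 and 7.18 CPM in old ones (limma log2 fold change 1.28 with standard error 0.19 and adjusted p = 0.213). LMNB2, the other B-type lamin gene, was at 0.806 and 0.751 CPM in young livers against 1.84 and 0.877 CPM in old ones. BANF1, which tethers chromatin to the lamina, was at 111 and 128 CPM in young livers against 64.8 and 55.8 CPM in old ones (log2 fold change -0.98, adjusted p = 0.216, limma). SUN2, a link between lamina and cytoskeleton, was at 17.0 and 13.96 CPM in young livers against 12.1 and 9.97 CPM in old ones. These 4 genes are named because their ages did not overlap. In old livers 2 were higher and 2 lower (28.6% each, beside 24.4% and 25% of all mRNAs). The other 3 tested, SUN1, HMGB2 and CBX1, overlapped as LMNB1 did.

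Of 25 genes of cell division, 16 could be tested, and their median log2 fold change was 0.01 (0.26 in edgeR). Their summed level was 2.76 and 5.63 CPM in the young livers and 3.73 and 3.58 CPM in the old livers, so these genes were counted at a low level in every library. No call was made. The ages separated for 4 genes (25%) upward and 3 (18.8%) downward in old livers, beside 24.4% and 25% of all mRNAs.

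**Figure D4:**
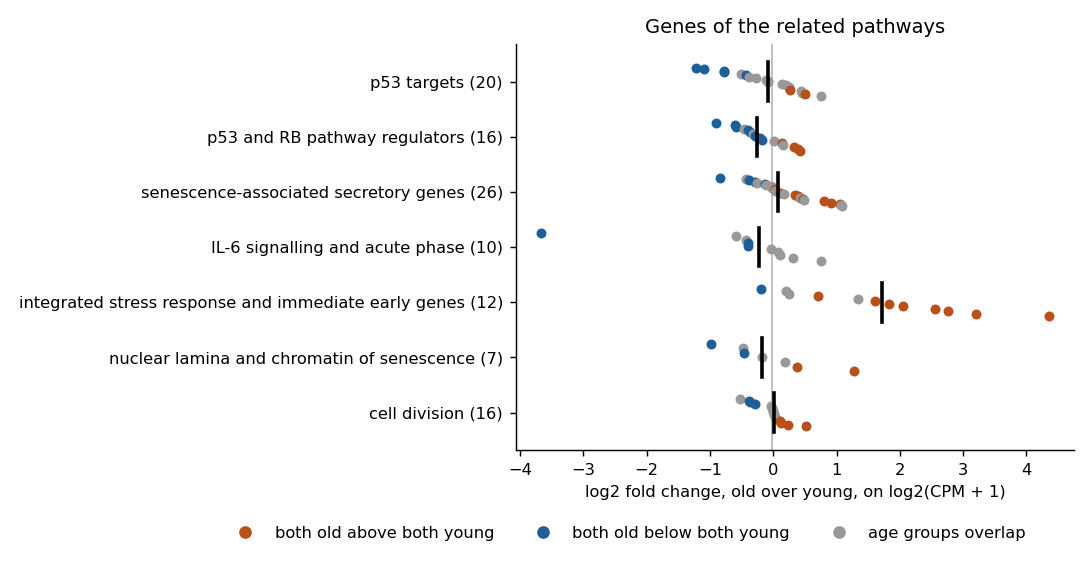
Log2 fold change of old over young livers on log2(CPM + 1) for each tested gene of the 7 related pathways, coloured by whether the ages overlap, with the number of genes in brackets, the list median as a black bar and the median of all mRNAs as a grey line. The stress and immediate early genes have a median of 1.72, and the other 6 medians lie between -0.25 and 0.07.

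The mRNAs whose profile lay nearest to a member were sought among 6102 with a symbol and a mean of at least 1 CPM, by Euclidean distance of log2(CPM + 1) centred on the mean of the 4 libraries. Nearest to GADD45B were PML, the scaffold of PML nuclear bodies (distance 0.554), with 0.653, 1.11, 8.82 and 1.67 CPM in young replicates 1 and 2 and old replicates 1 and 2, and MFSD12, a lysosomal transporter (0.574). Nearest to MDM2 were ARHGEF3 (0.0787), with 1.86, 0.508, 1.35 and 0.640 CPM, and SUDS3, a subunit of the SIN3 histone deacetylase complex (0.120). Nearest to LMNB1 were PAICS, an enzyme of purine synthesis (0.0406), with 15.7, 11.3, 10.1 and 13.6 CPM, and CCDC149 (0.0502). The distances of GADD45B to its neighbours were larger than those of MDM2 and LMNB1 to theirs. With 4 libraries these are descriptions of likeness only.

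The miR-34 miRNAs are transcribed from loci that p53 binds and were read from the separate small RNA libraries. In limma, 0% of the 867 miRNAs tested were called, and the exact test of edgeR called 3.69%. The share at an unadjusted p under 0.05 in limma was 8.3% higher and 3.58% lower in old livers. Values are in the normalised units of the deposited table, which sum to a different total in each library. miR-34a was at 1590 and 1094 in young livers against 2039 and 819 in old ones, so that both extremes came from old livers. Its log2 fold change in limma was -0.03 with a standard error of 0.68 (adjusted p = 0.991). miR-34c was at 107 and 75.1 in the young livers (80 and 78 reads) against 227 and 167 in old ones (200 and 140 reads). It was higher in both old livers, as were 28.3% of the miRNAs tested, with a limma log2 fold change of 1.11 with a standard error of 0.60 (adjusted p = 0.517). The opposite arm, miR-34c-3p, was at 14.7 and 7.70 in young livers against 25 and 41.6 in old ones, from at most 35 reads (log2 fold change 1.51, adjusted p = 0.414, limma). Rescaled to a common sum over the listed miRNAs, the log2 fold change of miR-34c-3p was 0.86 and that of miR-34c 0.95 (adjusted p = 0.237 and 0.208, limma). With 1 library left out, that of miR-34c-3p lay between 1.09 and 1.94.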

How the data were processed

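RNA-seq and small RNA-seq libraries of 4 sow livers were compared between 2 ages. The authors aligned clean RNA-seq reads to Sscrofa10.2 with TopHat2 2.0.14, assembled transcripts with StringTie 1.2.3 and used Salmon 0.6.0. The deposited mRNA values, named TPM by the authors, are CPM: in each library all values (100%) lay within 0.00051 of a multiple of the same smallest step, which is what 1 read is worth. Whole reads were recovered by dividing by that step. The deposited miRNA values are a normalised signal for miRNAs found with mirdeep2, and between 99.88% and 100% were whole reads in each library.

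Symbols came from an Ensembl name table (11654 of 21607 identifiers). Coordinates are not printed, as the gene table used here is of another build. Limma 3.58.1 was fitted to log2(value + 1) without covariates, with Benjamini-Hochberg adjustment over all features tested. The exact test (common and tagwise dispersion) and quasi-likelihood test of edgeR 4.0.16 used recovered reads with TMM factors. The unit was CPM and not counts, so limma was the main test. Scripts were tested on simulated counts. R 4.3.3, Python 3.11.15 and scipy 1.17.1 were used.

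The members and gene lists were chosen with earlier results of these data known. Genes named were every member, its 2 nearest profiles where its mean was at least 1 CPM, and, from each pathway list, the 2 higher and 2 lower of smallest p among those with a mean of at least 1 CPM and no overlap of the ages. Some genes that this rule names are not reported here. The miRNA rescaling and edgeR fits were added after seeing the data. Intervals cover counting error only.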

Additional observations from a re-analysis of the deposited data

How the results depend on the processing

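No fit called a member: limma, limma with 7 other settings, both tests of edgeR and limma without each library all gave 0 of the members tested. Over all mRNAs limma called 0, with 1145 higher and 1509 lower at an unadjusted p under 0.05, and 2 with a mean of at least 1 CPM; the exact test of edgeR called 399 (345 higher and 54 lower) and the quasi-likelihood test 0 (1954 higher and 520 lower at an unadjusted p under 0.05). Of the pathway genes the exact test called 6 and every other fit 0. The log2 fold change of MDM2, -0.05 in limma, was 0.17 after rescaling, 0.12 with TMM factors and 0.077 in both tests of edgeR, and with 1 library left out it ranged from -0.56 to 0.47. That of LMNB1 ranged from -0.41 to 0.012, that of GADD45B from 1.0 to 2.72 and that of miR-34a from -0.69 to 0.63 with 1 library left out; the cause was not tested. CDKN2A was 0.51 without either young replicate and could not be fitted without an old replicate or with a mean of at least 1 CPM, since too few values remained. Rescaling moved the median of all mRNAs by 0.11 and the edgeR fits moved it by 0.14. The libraries share only replicate numbers across ages; deviations of same-numbered libraries correlated at 0.09 across mRNAs, and with the number as a replicate block limma called 0 mRNAs and 0 members, with GADD45B at 1.86 (adjusted p = 0.444, limma). The nuclear lamina median, and those of p53 targets and IL-6 signalling, changed sign in some of these fits. CDKN2A, CDKN1A and IL6 rest on few or no reads, and the part of depth or of a failed estimate in their values was not tested.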

Other observations

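Marker genes of further cell types are given as values that belong to no comparison above. Over all mRNAs tested, both old livers were above both young livers for 24.4% and below for 25%. Only markers with an identifier are counted, such as 5 of 12 named for macrophages and 7 of 11 for endothelial cells. Hepatocyte markers were below both young livers in both old livers for 5 of 14 and above for 0 (90938 to 101818 CPM in young and 64254 to 70008 CPM in old livers). Macrophage markers were above both young livers in both old livers for 3 of 5 (217 to 249 CPM in young and 295 to 343 CPM in old livers). Endothelial markers were above for 3 and below for 1 of 7 (81.7 to 82.9 and 158 to 222 CPM). Most of the endothelial sum in old livers was FCN2, at 36.8 and 42.7 CPM in young livers against 148 and 107 CPM in old ones. KDR and TEK were lower in old replicate 1 (2.26 and 3.14 CPM) than in either young liver. These 3 genes are named after their values were seen. Cholangiocyte markers were above for 3 of 6 (9.57 to 11.8 and 10.6 to 19.5 CPM). B and plasma cell markers were above for 1 and below for 1 of 5 (3.27 to 5.73 and 6.15 to 16.1 CPM), erythroid markers above for 2 and below for 2 of 5 (429 to 622 and 308 to 407 CPM), and stellate cell and fibroblast markers above or below for 0 of 8 (20.7 to 40.2 and 15.7 to 54.9 CPM). Skeletal muscle markers stayed at or below a sum of 1.39 CPM in every library. None of these markers was called by limma, and the part of these markers in the values of CDKN2A and GADD45B was not tested.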
